A study of Homo sapiens with 21 samples.

Results

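The gene of the oestrogen receptor, ESR1, and 9 of its classical target genes were followed through ChIP-seq peak lists of oestrogen-deprived CAMA1 cells. The 10 genes, out of 19970 protein-coding genes in the annotation, were chosen by name: ESR1, PGR, GREB1, TFF1, TFF3, XBP1, CA12, NRIP1, PDZK1 and RARA. All peaks inside these genes, within 1 kb of their ends or within 50 kb outside them on hg38 were taken, which gave 1200 of 702826 peaks in 14 lists. A peak that lay in the loci of both TFF1 and TFF3, which are neighbours, was counted once.

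CAMA1 is a breast cancer cell line that the labels call oestrogen receptor-positive and FGFR1-amplified, and it was used below passage 10. All cells, controls included, were kept without estradiol for 48 h before collection. In the transfected groups FGFR1, a fibroblast growth factor receptor with tyrosine kinase activity, was immunoprecipitated 72 h after an siRNA against FOXA1 (siFOXA1) or a non-targeting siRNA (siNT). In untransfected cells the targets were FGFR1, FOXA1, acetylated lysine 27 of histone H3 (H3K27ac), trimethylated lysine 4 of histone H3 (H3K4me3) and the serine 5-phosphorylated form of RNA polymerase II (Pol II S5P). Each of these 7 groups had 2 libraries, each with its own peak list, and the inputs, 7 in all, were not analysed here. Whether the paired libraries stem from separate cultures is not in the labels, so the spread between them may be technical.

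The oestrogen receptor is a nuclear receptor that, once bound by estradiol, sits mostly at enhancers away from gene starts and recruits coactivators there. FOXA1 is a pioneer factor that opens chromatin at many of these enhancers in breast cells, while H3K27ac marks active enhancers and promoters, H3K4me3 marks promoters, and Pol II S5P marks polymerase near the start of transcribed genes. ESR1 codes for the receptor, PGR and RARA for other nuclear receptors, NRIP1 and GREB1 for cofactors of the receptor, and TFF1 and TFF3 for secreted trefoil peptides. XBP1 is a transcription factor of the unfolded protein response, CA12 a carbonic anhydrase of the cell surface, and PDZK1 a scaffold protein that binds membrane transporters. Neither binding of the oestrogen receptor nor RNA was measured in these libraries.

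A region is called reproducible, or simply a region, where peaks of both lists of a group overlapped by at least 1 bp. The lists held 4332 and 5056 peaks for FGFR1 after siFOXA1, 6007 and 6594 after siNT, and 5341 and 13135 in untransfected cells, while the other untransfected lists held 12267 to 154358. Of the untransfected FGFR1 peaks, 93.1% in list 1 lay in list 2 but 36.3% in list 2 lay in list 1. For the other untransfected targets the shared part was 54.5% to 93.4% of a list, and for transfected FGFR1 25.1% to 37.9%. The background behind a peak was 2.11 to 4.33 fragments per position in the 12 lists in which it could be derived, and total read counts were not analysed here. Of the luminal epithelial markers 8 of 8 had an H3K27ac region and 7 of 8 an H3K4me3 region at a gene end. The counts were 3 and 2 of 6 basal or mesenchymal markers, 1 and 2 of 5 haematopoietic markers and 3 and 3 of 4 hepatic or neuronal markers. Of all protein-coding genes 67.5% and 66.6% had these regions. The luminal markers were KRT8, KRT18, KRT19, EPCAM, CDH1, GATA3, FOXA1 and ESR1, and ESR1, itself under study, lacked the H3K4me3 region. Copy number was not measured, so gains of DNA and binding cannot be told apart in the fold enrichments.

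Promoter stretches of ESR1, PGR, RARA, NRIP1, XBP1 and CA12 are printed because RefSeq starts of these genes lay in H3K4me3 regions with a fold enrichment of at least 50 in both lists. For each such region the most upstream start was taken. Each is 250 bases immediately before a RefSeq start (GRCh38.p14), read 5′ to 3′ on the gene's strand. RefSeq starts were found for 7 of the 10 genes, namely ESR1, PGR, XBP1, CA12, NRIP1, PDZK1 and RARA, with 20 starts in all. Capitals mark GGTCA, the half-site of an oestrogen response element, and GGGCGG, a GC box, on either strand, so that TGACC and CCGCCC are capitals too.
ESR1, chr6:151806946-151807195, plus strand: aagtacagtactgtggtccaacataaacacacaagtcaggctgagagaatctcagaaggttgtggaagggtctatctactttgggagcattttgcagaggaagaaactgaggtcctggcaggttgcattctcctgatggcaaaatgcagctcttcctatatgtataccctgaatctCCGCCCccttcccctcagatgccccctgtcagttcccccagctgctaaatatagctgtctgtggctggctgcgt
PGR, chr11:101129814-101130063, minus strand: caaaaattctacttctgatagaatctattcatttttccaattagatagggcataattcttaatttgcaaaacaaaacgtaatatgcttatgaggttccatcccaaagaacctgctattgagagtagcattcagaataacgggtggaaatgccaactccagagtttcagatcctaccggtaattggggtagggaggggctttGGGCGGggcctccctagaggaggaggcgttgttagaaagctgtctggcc
RARA, first start, chr17:40308930-40309179, plus strand: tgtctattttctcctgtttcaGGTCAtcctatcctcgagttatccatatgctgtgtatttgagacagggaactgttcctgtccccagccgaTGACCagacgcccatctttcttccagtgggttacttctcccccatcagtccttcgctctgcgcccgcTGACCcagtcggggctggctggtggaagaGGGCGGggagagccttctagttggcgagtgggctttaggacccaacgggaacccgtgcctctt
RARA, inner start, chr17:40317995-40318244, plus strand: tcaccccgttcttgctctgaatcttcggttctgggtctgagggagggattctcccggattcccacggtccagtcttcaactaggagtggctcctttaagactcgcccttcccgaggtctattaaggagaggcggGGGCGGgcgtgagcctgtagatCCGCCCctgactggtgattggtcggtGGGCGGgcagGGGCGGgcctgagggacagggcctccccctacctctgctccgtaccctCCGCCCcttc
NRIP1, chr21:15065937-15066186, minus strand: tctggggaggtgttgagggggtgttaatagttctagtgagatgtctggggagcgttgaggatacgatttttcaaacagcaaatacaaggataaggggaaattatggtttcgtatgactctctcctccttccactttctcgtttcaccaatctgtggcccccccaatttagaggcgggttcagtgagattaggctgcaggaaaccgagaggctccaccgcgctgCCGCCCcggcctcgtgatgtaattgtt
XBP1, chr22:28800570-28800819, minus strand: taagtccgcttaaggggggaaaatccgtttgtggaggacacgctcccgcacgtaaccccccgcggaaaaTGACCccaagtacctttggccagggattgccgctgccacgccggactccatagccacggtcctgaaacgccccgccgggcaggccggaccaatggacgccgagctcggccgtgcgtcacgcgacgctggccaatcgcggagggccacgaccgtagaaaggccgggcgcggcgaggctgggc
CA12, chr15:63381847-63382096, minus strand: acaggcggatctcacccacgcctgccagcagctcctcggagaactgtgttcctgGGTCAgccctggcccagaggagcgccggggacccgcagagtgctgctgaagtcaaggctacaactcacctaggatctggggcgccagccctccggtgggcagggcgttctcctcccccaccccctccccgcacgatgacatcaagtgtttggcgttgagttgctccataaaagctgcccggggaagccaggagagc

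The ESR1, PGR and NRIP1 stretches held 1 GC box each and no half-site, the first RARA start 3 half-sites and 1 GC box, and the inner RARA start 5 GC boxes and no half-site. XBP1 and CA12 had 1 half-site each and no GC box. The full palindrome GGTCANNNTGACC was found before none of the 20 starts and before 0.0271% of 22131 RefSeq starts. A half-site stood before 10 of the 20 starts and before 31.2% of all starts, and a GC box before 12 of the 20 and 53.7% of all. The forkhead letters TGTTTAC and TGTTTGC stood before none of the 20 starts and before 2.45% and 2.75% of all. Several of the 20 stretches overlap one another, so these counts are not independent. No match says only that these letters are not in this window.

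FOXA1 and H3K27ac regions were found at all 10 loci, as at 91.7% and 89.8% of all genes' loci. Untransfected FGFR1 had a region at 3 of the 10 loci, against 40.4% of all genes, and at no gene end in both lists. Within 1 kb of a gene end, FOXA1 had a region at 6 of the 10 genes, namely PGR, GREB1, TFF1, TFF3, XBP1 and CA12, while 32.3% of all genes had one. H3K27ac was there at 10 of 10, against 67.5% of all genes, and H3K4me3 at 8 of 10, against 66.6%, the exceptions being ESR1 and PDZK1. Pol II S5P had a region at an end of XBP1 and CA12, 2 of 10 genes, against 38.9% of all genes. FGFR1 had none at an end of any of the 10 genes after siFOXA1, after siNT or in untransfected cells, where 1.95%, 4.84% and 19.9% of all genes had one. For FGFR1, 10 genes are too few to tell 3 loci, or none at an end, from these shares.

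Most of these 10 genes carry H3K4me3, so genes with an H3K4me3 region at an end are a closer background, added after the data were seen. Of those 13300 genes 43.8% had FOXA1, 95.2% H3K27ac and 58.2% Pol II S5P at an end, while FGFR1 was there at 2.9% after siFOXA1, 7.17% after siNT and 29.9% in untransfected cells. In single lists, Pol II S5P was called at an end of 6 of the 10 genes in list 1 and 2 in list 2. FOXA1 was called at 7 and 6, and untransfected FGFR1 at 0 and 2. The shares above count regions found in both lists, so they are no like background for these single-list counts. Within 1 kb of a RefSeq start, the other added view, FOXA1 had a region at 4 of 7 genes (ESR1, PGR, XBP1 and CA12), against 30.5% of all genes in the promoter table. H3K27ac was at 7 of 7, against 69.1%, H3K4me3 at 6 of 7, against 69.6%, and Pol II S5P at XBP1, CA12 and RARA, 3 of 7, against 41.6%. FGFR1 was at none of the 7 after siFOXA1, against 1.69%, and at none after siNT, against 4.44%. No test was made of these differences.

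Counted over the whole locus, FOXA1 had 160 regions, H3K27ac 181, H3K4me3 62 and Pol II S5P 10. All 10 loci held FOXA1, H3K27ac and H3K4me3, as did 91.7%, 89.8% and 89.3% of all genes' loci, so presence alone sets these genes little apart. Per 100 kb of locus the median over the 10 genes was 8.10 FOXA1 regions against 3.52 over all genes, and 10 of 10 lay above that median. It was 8.26 H3K27ac regions against 4.51, and 26.8% of the locus was covered by H3K27ac against 6.79%. NRIP1 was the exception with 0.977 H3K27ac regions per 100 kb, below the median of all genes. For H3K4me3 the medians were 3.85 and 2.13, and for Pol II S5P 0 and 0.709. Genes with H3K4me3 at an end had higher medians, 4.01 for FOXA1, 5.77 for H3K27ac, 2.78 for H3K4me3 and 0.92 for Pol II S5P. Above these lay 9, 9, 6 and 3 of the 10 genes. The median H3K27ac coverage over the loci of genes with H3K4me3 at an end was 9.55%.

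**Figure D1:**
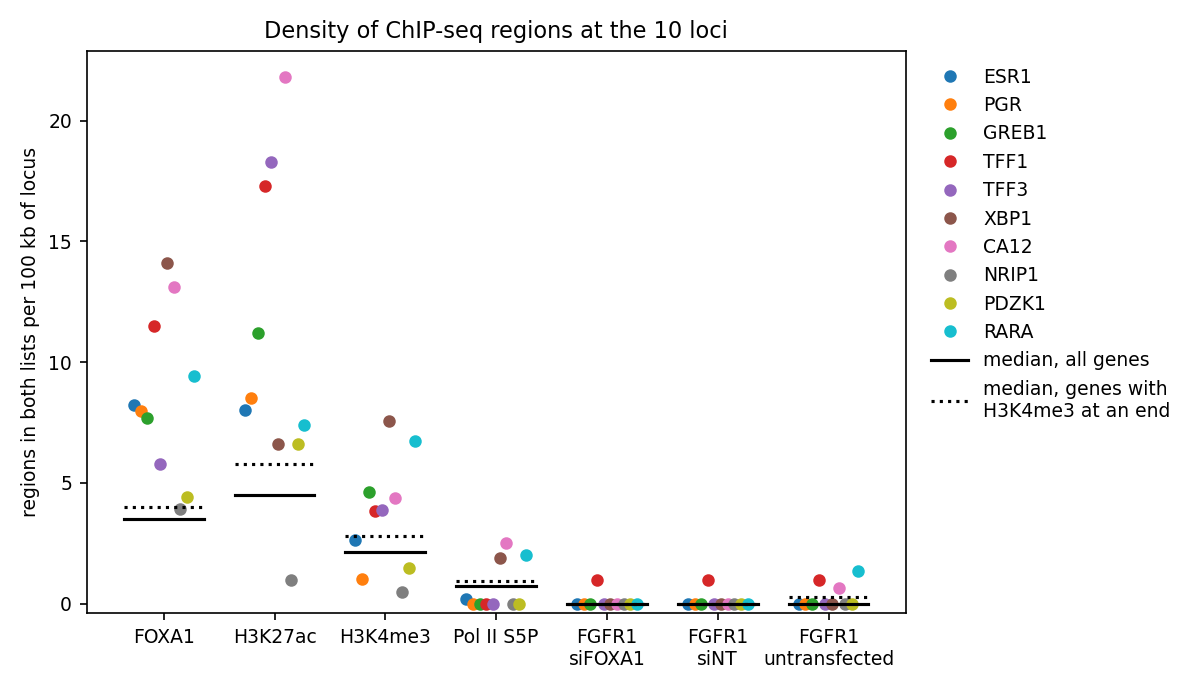
Regions found in both lists per 100 kb of locus (y axis) for each ChIP group (x axis), with 1 point per gene, the median of all protein-coding genes as a solid line and the median of genes with H3K4me3 at an end as a dotted line. For FOXA1 all 10 points lie above the solid line, with XBP1 highest at 14.1, and for FGFR1 most points lie at 0.

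At ESR1 itself, FOXA1 and H3K27ac were found at many places within the gene and in its flanks. H3K27ac covered 21.4% of the locus and left long stretches free, the longest between chr6:151905318 and 152025690. ESR1 lies at chr6:151656672-152129619, has 6 RefSeq starts in the table, and had 52 FOXA1 peaks in each list, of which 47 regions were shared by both. These came to 8.20 regions per 100 kb, the 87.9th percentile of all genes, with 38 inside the gene and 9 in the flanks. The strongest FOXA1 region lay outside the gene at chr6:151632396-151633193, with fold enrichments of 55.1 and 52.3, and its summits were on average 23883 bp from the nearest RefSeq start. These values are the authors' own and rank a peak only within its list, where they stood at the 99.0th and 99.1st percentile. The region next to it, chr6:151633486-151634301, had 29.4 in each list, and both lay within a single stretch of H3K27ac.

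The first start of ESR1 was covered by an H3K27ac region of 29396 bp, with fold enrichments of 19.2 and 23.2 and summits on average 5662 bp away. No H3K4me3 region came within 1 kb of this start. The strongest H3K4me3 region, at chr6:151806897-151812073, instead lay well inside the gene and had 77.3 and 77.4, the 76.4th and 75.0th percentile of its lists. It covered the RefSeq starts at 151807196, 151807682 and 151809107, and the ESR1 stretch printed above. A weaker H3K4me3 region, chr6:151663723-151666700, had 30.0 and 28.9 and held the only Pol II S5P region of the locus. That Pol II S5P region, chr6:151665321-151665668, had 4.27 and 4.33, low in both lists at the 21.8th and 10.6th percentile, and lay 8789 bp from the nearest RefSeq start. ESR1 had no Pol II S5P peak within 1 kb of a RefSeq start and no FGFR1 peak in any of the 6 FGFR1 lists.

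**Figure D2:**
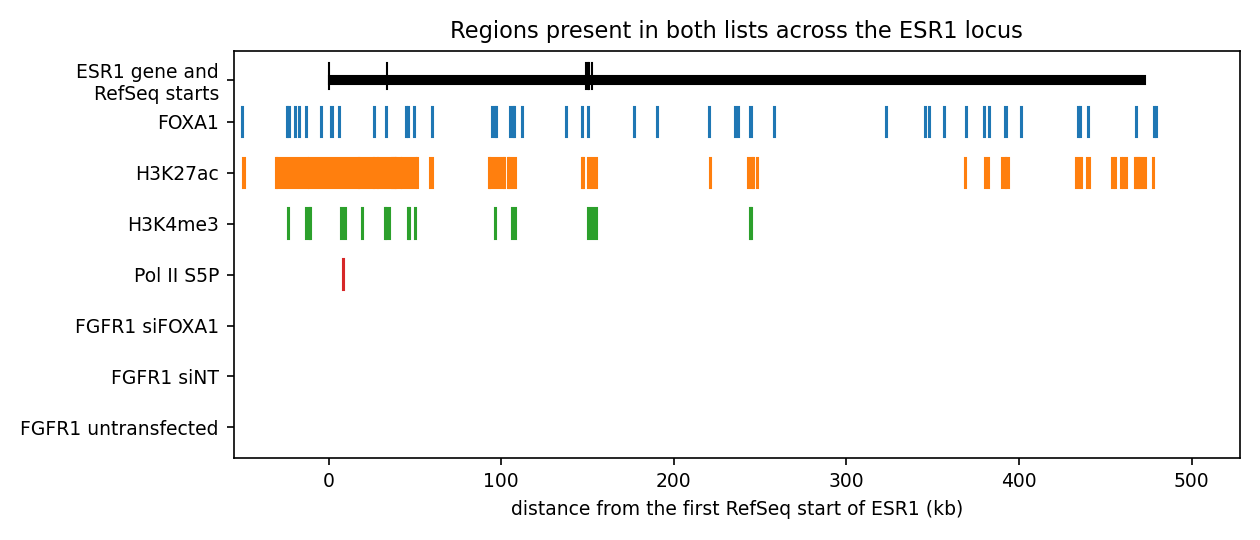
Map of the ESR1 locus, with the distance from its first RefSeq start in kb (x axis) and each ChIP group in its own line. Coloured blocks are regions found in both lists, drawn to scale with a minimum width, the black bar is the gene and the black ticks are RefSeq starts. H3K27ac regions around the first start stand so close that their gaps are hard to see, FOXA1 runs through the gene in 38 regions, and the 3 FGFR1 lines are empty.

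The 3 genes whose peak counts over 14 lists and 3 zones were most like those of ESR1 were SLC7A2, STK32B and C12orf42, with Pearson correlations of 0.985, 0.981 and 0.979 over 42 values. These had 12 to 46 FOXA1 regions, 16 to 66 H3K27ac regions and, like ESR1, no FGFR1 region. Among the receptor's target genes GREB1 came closest at 0.951 and PGR had 0.876, while TFF1, XBP1 and TFF3 had 0.249, 0.286 and 0.359. The values share libraries and depend on gene length, so they are a description only.

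PGR, which codes for the progesterone receptor, had 17 and 16 FOXA1 peaks and 16 shared regions. Its strongest FOXA1 region lay inside the gene at chr11:101113467-101113892, with fold enrichments of 39.6 and 34.3, and 16141 bp from the nearer gene end. At the start of PGR the FOXA1 peak was weaker, with 11.9 and 7.87. An H3K4me3 region of 6469 bp covered all 3 RefSeq starts of PGR, with fold enrichments of 77.6 and 76.0, and an H3K27ac region of 5103 bp covered 2 of them, with 22.3 and 27.1. Pol II S5P was called there in list 1 alone, at a fold enrichment of 4.27, and FGFR1 in none of the 6 lists. Of the 16 FOXA1 regions 9 overlapped H3K27ac.

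RARA codes for a retinoic acid receptor and has its first RefSeq start at chr17:40309180 and an inner start at 40318245. A single H3K27ac region of 41987 bp covered both, with 51.0 and 51.3, the 99.4th and 99.1st percentile of its lists. H3K4me3 stood at both starts, with 64.5 and 68.6 at the first and 104 and 105 at the inner one. FOXA1 had 14 regions, none within 1 kb of a start, and its strongest, chr17:40306957-40308093 with 41.1 and 35.8, lay 1305 bp before the first start. Pol II S5P was reproducible at the inner start, with 6.92 and 7.0, and at no other start of RARA.

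The inner start of RARA was also the place where FGFR1 came closest to one of these genes' starts in both untransfected lists. That region, chr17:40318107-40318453, overlaps the inner stretch printed above and had 4.32 in list 1 and 4.44 in list 2, the 19.7th and 32.5th percentile. By RefSeq starts, RARA was thus 1 of 7 genes with untransfected FGFR1 there, and 20.8% of all genes in the promoter table had it. Of the 7 FGFR1 peaks that list 2 held at RARA, 4 overlapped a FOXA1 region, and none of those 4 was called in list 1. Of these, chr17:40316628-40316999 had 6.0, chr17:40287597-40288012 in the flank 5.33, chr17:40307067-40307449 in the strongest FOXA1 region of RARA 4.66, and chr17:40322401-40322625 had 4.22.

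NRIP1, a corepressor of the receptor also known as RIP140, had the fewest marked regions of the 10 genes. It had 12 and 11 FOXA1 peaks and 8 shared regions, of which 1 overlapped H3K27ac. The strongest, chr21:15096756-15097424, had 14.4 and 14.6 and lay 31035 bp from the nearest start, without H3K27ac. At the starts of NRIP1, H3K4me3 had 99.7 and 97.6 and H3K27ac 27.8 and 33.4, both high within their lists. Pol II S5P was called there in list 1 alone, with 6.03. FOXA1 had no peak at a start, and a weak one with 4.80 at the far end of the gene, in list 1 alone.

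GREB1, a cofactor of the receptor whose gene the receptor itself induces, had 24 and 20 FOXA1 peaks and 20 shared regions, 18 of them with H3K27ac and 11 with H3K4me3. The strongest, chr2:11558610-11559500 with 33.8 and 31.1, lay inside the gene, and so did chr2:11582646-11583681 with 31.5 and 25.9. At the lower-coordinate end of GREB1 the FOXA1 peak was weak, with 4.80 and 3.75, although H3K4me3 had 85.8 and 85.6 and H3K27ac 45.3 and 45.0 there. Pol II S5P was called at this end in list 1 alone, with 4.93. GREB1 thus showed strong marks at its end and its stronger FOXA1 regions within the gene.

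TFF1 at chr21:42362282-42366535 and TFF3 at chr21:42311667-42315409 share part of their loci, including 5 FOXA1, 12 H3K27ac and 3 H3K4me3 regions. FOXA1 stood directly at an end of each, chr21:42366376-42367022 with 21.7 and 19.5 for TFF1 and chr21:42315251-42315857 with 29.0 and 30.2 for TFF3. These were the strongest FOXA1 regions at an end of any of the 10 genes. Between the 2 genes chr21:42330566-42331516 had 20.2 and 20.6. The strongest region of the TFF3 locus, chr21:42262820-42263742 with 36.7 and 39.9, lay inside ABCG1.

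H3K4me3 at the trefoil genes was weak next to the other genes, with 11.5 and 11.6 at TFF1 and 12 and 9.07 at TFF3, near the middle of its lists. The other 6 genes with H3K4me3 at an end had 64.5 to 104 there. H3K27ac covered 34.9% of the TFF1 locus and 29.6% of the TFF3 locus, at 10.8 and 11.9 at TFF1 and 18.7 and 18.1 at TFF3. Pol II S5P was found at neither locus in either list. Of the FOXA1 regions 11 of 12 at TFF1 and 6 of 6 at TFF3 overlapped H3K27ac.

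**Figure D3:**
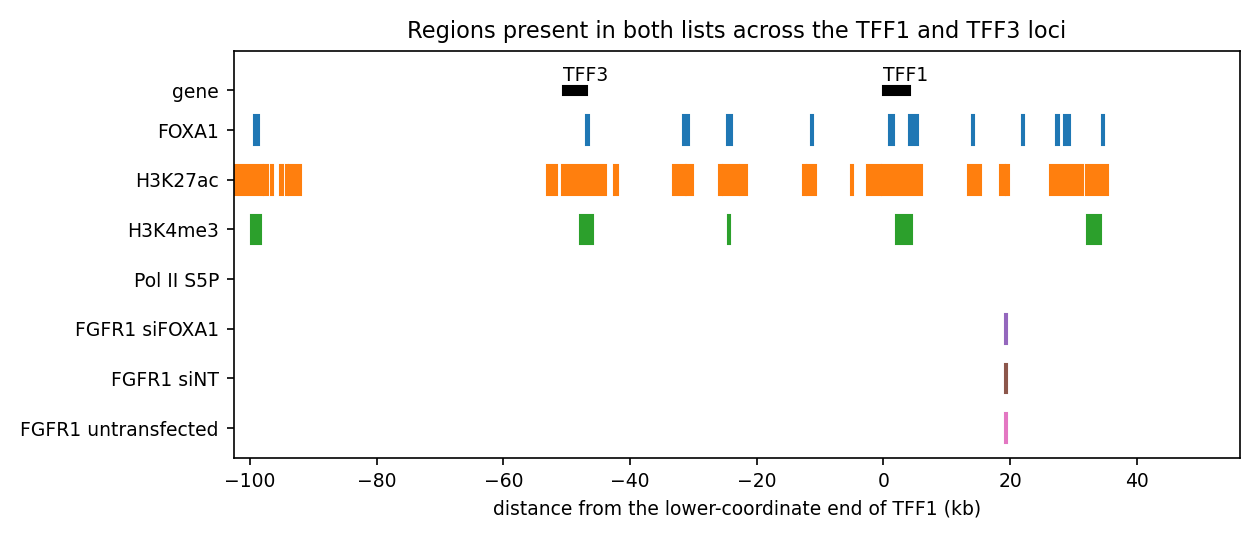
Map of the TFF1 and TFF3 loci, with the distance from the lower-coordinate end of TFF1 in kb (x axis) and each ChIP group in its own line. Blocks are regions found in both lists, drawn to scale with a minimum width, and black bars are the genes. FOXA1 and H3K27ac stand at both genes, the Pol II S5P line is empty, and the 3 FGFR1 lines each hold 1 block, at the same place beyond TFF1.

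XBP1 had the densest FOXA1 binding of the 10 genes, at 14.1 regions per 100 kb, the 98th percentile of all genes. It had 18 and 22 FOXA1 peaks and 15 shared regions, 14 of which overlapped H3K27ac. The strongest FOXA1 region at any of the 10 genes was chr22:28822810-28823496, with 63.4 and 59.8, at 22505 bp from the nearest start of XBP1. The next, chr22:28818006-28820068, had 58.8 and 57.4. Both lay in an H3K27ac region of 36315 bp that also held the gene, with 56.0 and 56.4.

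At the start of XBP1, H3K4me3 had 101 and 102 and Pol II S5P 19.9 and 18.6, the 97.9th and 98.1st percentile of the Pol II S5P lists. That Pol II S5P region, chr22:28792637-28801913, spanned the whole gene and was the strongest at an end of the 10 genes. FOXA1 at this start, chr22:28800541-28800880, was among the weakest peaks of its lists, with 3.55 and 3.0, and at the far end of XBP1 it had 13.8 and 10.7. FGFR1 was called at XBP1 in untransfected list 2 alone, with 3 peaks. The one at the start, chr22:28800243-28800701, had 5.77, and chr22:28793036-28793432 in the flank had 4.44. The weakest, chr22:28818530-28818882 with 3.55, stood at the 6.68th percentile of that list and lay inside the FOXA1 region chr22:28818006-28820068. The peak at the start also overlapped a FOXA1 region, and the one with 4.44 did not.

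CA12 had 26 and 24 FOXA1 peaks and 21 shared regions, 19 of them with H3K27ac, and the densest H3K27ac of the 10 genes at 21.8 regions per 100 kb, the 99.1st percentile of all genes. Its strongest FOXA1 region, chr15:63379348-63379903 with 42.8 and 47.6, lay inside the gene, 2174 bp from the start. A second, chr15:63403312-63404040 with 37.8 and 38.8, lay 21918 bp outside it. At the start, H3K4me3 had 102 and 104, H3K27ac 47.7 and 54.4, and Pol II S5P 14 and 13. FOXA1 at the start was weaker, at chr15:63381865-63382290 with 4.80 and 6.0, and at the far end of CA12 it had 5.22 and 5.06. FGFR1 was called at this start in untransfected list 2 alone, chr15:63381604-63381984 with 9.10, the 86.7th percentile of that list.

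PDZK1 had an H3K27ac region of 9919 bp that reached its start, with 18.9 and 21.3. Its summits lay on average 4358 bp from the nearest start, so these values are not those of the start itself. No H3K4me3 region lay within 1 kb of an end of PDZK1. H3K4me3 within the gene was weak, with 4.92 and 6.52 at chr1:145690428-145691247, and a stronger region with 61.2 and 52.5 lay in the flank inside CD160. FOXA1 had 6 regions, 5 of them with H3K27ac and none within 1 kb of an end. The strongest were chr1:145740143-145740859 with 28.6 and 24.6 and chr1:145711090-145711630 with 23.4 and 21.4, the second of them 3979 bp before the start. Pol II S5P had no peak within 1 kb of an end of PDZK1.

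**Figure D4:**
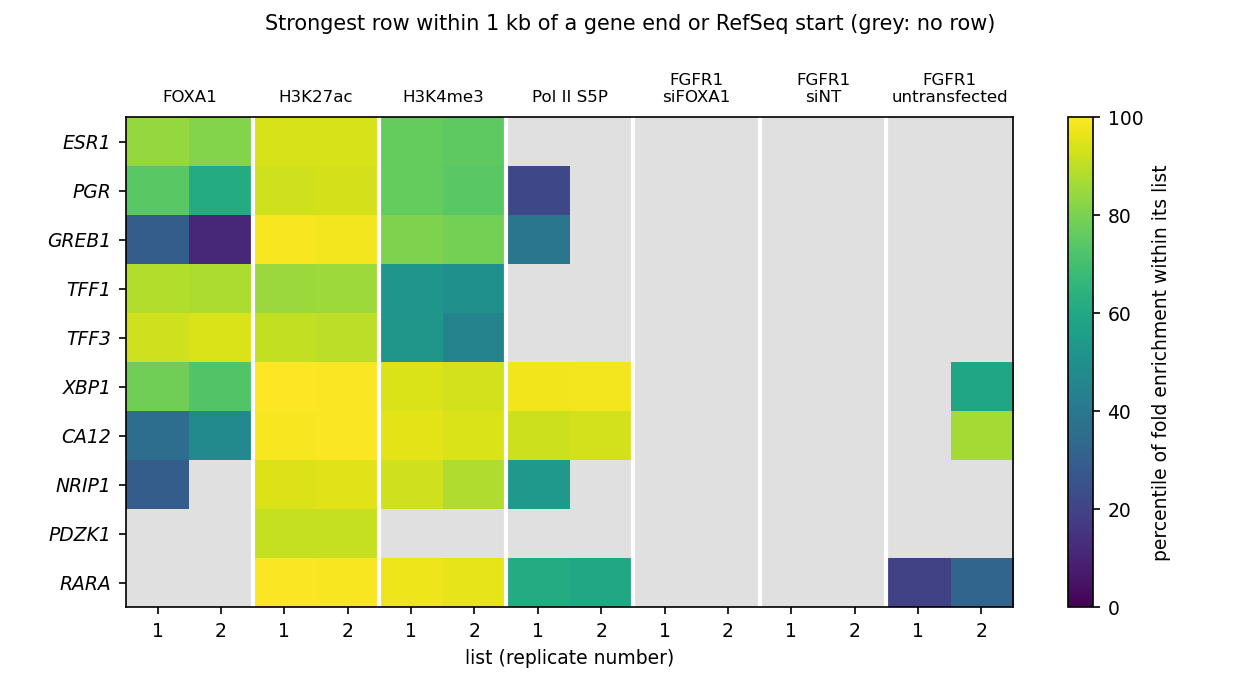
Within-list percentile of fold enrichment of the strongest peak within 1 kb of a gene end or RefSeq start (colour), for each of the 10 genes (rows) and each of the 14 lists (columns, by ChIP group and replicate number), with grey where there was no peak. H3K27ac is present for all 10 genes and high throughout, and FOXA1 is highest at TFF3. A broad peak counts by its reach, and the H3K27ac summits at PDZK1 lay 4358 bp from the nearest start. The FGFR1 columns are grey apart from RARA in both untransfected lists and XBP1 and CA12 in list 2.

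Over the 10 loci together, 123 of 160 FOXA1 regions overlapped H3K27ac, or 76.9% (95% Wilson interval 69.8% to 82.7%, for counting error only), against 50.4% of 104200 FOXA1 regions in the genome. H3K27ac without H3K4me3 was found at 72 of them, or 45.0% (37.5% to 52.7%), against 29.9%, and neither mark at 36, or 22.5% (16.7% to 29.6%), against 48.7%. H3K4me3 lay over 32.5% (25.7% to 40.1%), against 21.4%. The share with H3K27ac differed between genes, with 1 of 8 at NRIP1 and 9 of 16 at PGR at the low end and 6 of 6 at TFF3 at the high end. Seen from H3K27ac the loci did not stand out: 84 of 181 H3K27ac regions held FOXA1, or 46.4%, against 46.5% in the genome. With at least 50% of both regions in common the share of FOXA1 regions with H3K27ac was 1.88%. FOXA1 regions in the loci had a median width of 396 bp and H3K27ac regions one of 823 bp, and the part of width in that change was not tested.

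**Figure D5:**
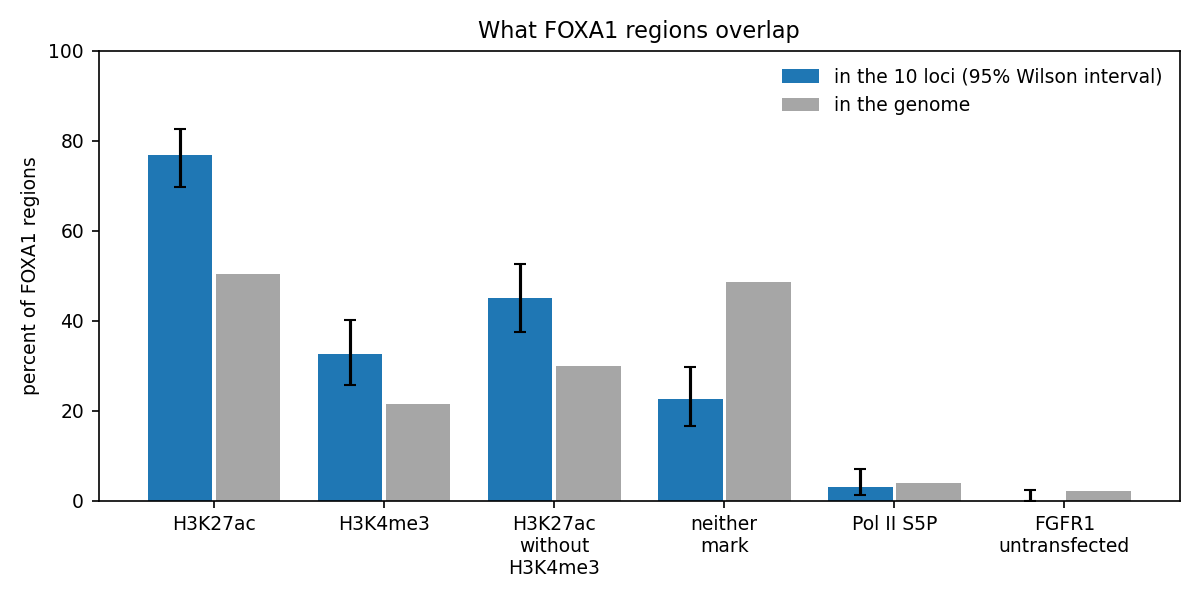
Percent of FOXA1 regions (y axis) that overlap each other target or combination of marks (x axis), in the 10 loci (blue, n = 160 regions, with 95% Wilson intervals) and in the genome (grey, n = 104200). H3K27ac reaches 76.9% in the loci and 50.4% in the genome, and the bar for FGFR1 in the loci is at 0.

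None of the 160 FOXA1 regions overlapped a reproducible FGFR1 region of untransfected cells (0% to 2.34%), against 2.10% of FOXA1 regions in the genome. At this number of regions a share like that of the genome cannot be told from none. The 4 reproducible untransfected FGFR1 regions lay at 3 loci, those of TFF1, CA12 and RARA, while 40.4% of all genes had one in the gene or within 50 kb. Besides the inner start of RARA these were chr17:40362722-40363066 at GJD3 in the flank of RARA, with 4.32 and 7.33, and chr15:63277151-63277763 at the end of APH1B in the flank of CA12, with 4.78 and 4.89. The fourth, chr21:42381430-42381738, lay 15032 bp beyond TFF1 and inside TMPRSS3, with 7.28 and 10.7. It overlapped H3K27ac but neither FOXA1, H3K4me3 nor Pol II S5P, while the other 3 overlapped H3K27ac, H3K4me3 and Pol II S5P.

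The comparison of siFOXA1 with siNT asks whether FGFR1 occupancy depends on FOXA1. FOXA1 itself was not immunoprecipitated after transfection, so the knockdown was not checked here. The 10 loci held 1 and 1 FGFR1 peaks after siFOXA1, against 1 and 2 after siNT. The peak found in all 4 lists was the one inside TMPRSS3 beyond TFF1, with 7.07 and 7.19 after siFOXA1 and 14.8 and 14.4 after siNT. Within their lists these stood at the 88.6th and 92.1st percentile after siFOXA1 and at the 96.9th in both after siNT. The siFOXA1 and siNT lists were called separately and differ in length, so no change in strength was read from these values.

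The remaining siNT peak, at chr1:145721166-145721437 in the flank of PDZK1, had 4.70 in list 2 alone, and no siFOXA1 list held it. An untransfected FGFR1 peak overlapped it, chr1:145721202-145721436 with 3.33, the 2.48th percentile, also in list 2 alone. For PDZK1 the peak counts were 0 and 0 after siFOXA1 and 0 and 1 after siNT (exact permutation test, two-sided, p = 1.0). With 2 lists against 2 the smallest p that this test allows is 0.333. ESR1, PGR, GREB1, TFF3, XBP1, CA12, NRIP1 and RARA had no FGFR1 peak in any of the 4 transfected lists. Of the siNT regions 0 of 1 at the 10 loci was lost after siFOXA1, against 34.7% of 2231 in the genome, and of the siFOXA1 regions 0 of 1 was gained, against 16.7% of 1237. A single region carries no information on how these loci compare with the genome.

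Among 30 other oestrogen-response genes, FGFR1 had a region at an end of 3 after siFOXA1, 6 after siNT and 10 in untransfected cells, where the shares of all genes were 1.95%, 4.84% and 19.9%. The 10 were led by CCND1, which codes for cyclin D1, with 21.6 and 27.8, KDM4B, a histone demethylase, with 16.6 and 24.9, ELOVL2, a fatty acid elongase, with 18.7 and 14.4, and MYBL1, a transcription factor, with 5.69 and 7.11. FOXA1 stood at an end of 17 of these 30 genes, against 32.3% of all genes, H3K27ac at 27, against 67.5%, H3K4me3 at 26, against 66.6%, and Pol II S5P at 13, against 38.9%. Of 20 partners of the receptor, FGFR1 had a region at an end of 1 after siFOXA1, 2 after siNT and 9 in untransfected cells, led by the acetyltransferase gene CREBBP with 20.5 and 28.4 and the coactivator gene NCOA3 with 8.42 and 8.66. FOXA1 stood at 11 of the 20 partners, H3K27ac at 19, H3K4me3 at 20 and Pol II S5P at 14. Since most genes of both lists carry H3K4me3, genes with H3K4me3 at an end are the closer background. Of those, 2.9% had FGFR1 at an end after siFOXA1, 7.17% after siNT and 29.9% in untransfected cells. FOXA1 was at an end of 43.8% of them, H3K27ac of 95.2% and Pol II S5P of 58.2%. In untransfected cells 10 of 30 was near the FGFR1 share, while 9 of 20 partners lay above it. After siFOXA1 and siNT the counts of 3 and 6 among the 30 oestrogen-response genes lay above their shares. Those of 1 and 2 among the 20 partners were near theirs. No difference from this background was tested.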

How the data were processed

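ChIP-seq peak lists of CAMA1 cells were analysed as deposited, 14 lists in 7 groups, with samples grouped by the labels. The submitters' processing notes name hg38, Bowtie2, SAMtools, Picard and MACS2, without versions or roles. The authors deposited a list per library, in which a peak has a summit, a score (not used here), a fold enrichment (a ratio to background on a linear scale) and the -log10 of its p-value and of its q-value. Each list's fold enrichments lay on a regular grid, and the -log10 p-values of 12 lists matched a Poisson count over a single background, which gave the depth; for Pol II S5P it was not derived. A single background means no visible correction for local copy number. The labels were followed where peak names differ from them, in the replicate number of untransfected FGFR1 and in FOXA2 written for FOXA1.

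Chromosomes 1 to 22 and X were used, leaving out 0.0227% to 2.74% of a list. Overlapping peaks of a list were merged, and a region needed peaks of both lists that share 1 bp or more. Gene ends came from a RefSeq gene table (GRCh38.p14) and starts and promoter sequences from a RefSeq promoter table. A peak was put at an end (within 1 kb), else inside the gene, else in the flank (up to 50 kb). Percentiles rank fold enrichment within a list. Distances are from the mean summit. The 10 genes and the other gene lists were chosen with earlier results of these data known. By the rule for naming, all 10 genes are named, at most 4 genes of each other list by FGFR1 percentile, 3 genes most like ESR1 (log2(1 + peaks)) and neighbours with an end at a region; ABCG1, TMPRSS3, GJD3 and CD160 and the single-list FGFR1 peaks were picked once their values were known. The settings varied were the threshold (-log10 q of 5 or more), the overlap (50% of both regions), windows of 500 bp and 3 kb, flanks of 20 kb and 100 kb, each list left out, lists of equal length and a replicate block. Scripts ran in Python 3.11.15 with numpy 2.4.6, pandas 2.3.3, scipy 1.17.1 and matplotlib 3.10.9, and the overlap steps were tested on simulated data.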

Additional observations from a re-analysis of the deposited data

How the results depend on the processing

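Counts and shares over the 10 loci were compared with each alternative setting. They stayed within 1.5 times, or within their interval, in 110 comparisons and moved further in 21. Counts of FOXA1, H3K27ac and H3K4me3 regions at each single gene stayed within 1.5 times in 130 comparisons and moved further in 50. The shares over all genes and over the genome were not recomputed under these settings. At a -log10 q of at least 5, H3K27ac regions in the loci numbered 111 in place of 181, untransfected FGFR1 regions were 2 in place of 4, and the share of FOXA1 regions with H3K27ac was 67.6% and of H3K27ac regions with FOXA1 55%. With reciprocal overlap of 50% those shares were 1.88% and 1.66%, FOXA1 with H3K4me3 was 4.38%, and Pol II S5P stood at an end of 1 gene. A flank of 100 kb gave 16 Pol II S5P regions. At RefSeq starts, added after the data were seen, untransfected FGFR1 stood at 1 gene. With a single list per group, genes with an end region ranged from 0 to 2 for untransfected FGFR1 (2, XBP1 and CA12, without list 1) and from 2 to 6 for Pol II S5P (6 without list 2). Regions ranged from 4 to 14 for untransfected FGFR1 (14 without list 1), 1 to 2 for siNT FGFR1, 292 to 306 for H3K27ac and 16 to 32 for Pol II S5P, and H3K27ac regions with FOXA1 from 30.1% to 49.2%. Lost siNT regions were 0 to 1, the 1 being the PDZK1 peak without siNT list 1. For these the cause was not tested, except that a list alone holds more regions than both lists share by construction. The siFOXA1 minus siNT difference at PDZK1 was -0.5 peaks with or without a replicate block. Same-numbered lists shared little beyond a number, with a correlation of their deviations of 0.0759 over 6875 genes. With 2 lists per group and no read counts, weak peaks seen in 1 list alone cannot be told from chance calls.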

Other observations

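Several regions of the 10 loci belonged to neighbouring genes. In the flank of GREB1 an H3K4me3 region at the end of E2F6, a repressor of the E2F family, had fold enrichments of 87.4 and 89.0. In the flank of CA12 the end of APH1B, a subunit of gamma-secretase, had 100 and 99.0, and in the flank of XBP1 the end of CCDC117 had 100 and 104. At RARA the end of CDC6, a replication licensing factor, had 95.6 and 97.8, and GJD3, a connexin gene, had 93.4 and 94.7. Pol II S5P was reproducible at the last 4 of these neighbours and not at E2F6. Of the 10 Pol II S5P regions in the loci, 4 therefore lay at neighbours, with 8.68 and 6.56 at APH1B, 10.7 and 8.34 at CCDC117, 7.36 and 5.89 at CDC6 and 8.02 and 7.0 at GJD3.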
